A study of Mus musculus with 6 samples.

Results

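Integrins are the receptors by which cells hold on to the matrix around them. Each is a pair of 1 α and 1 β chain, and the pairing sets the ligand: collagens, laminins, proteins with an RGD motif such as fibronectin, or counter-receptors on other cells. Laminins are the trimers of an α, a β and a γ chain that form the sheet of basement membranes and that several integrins bind. In fibroblasts, integrins anchor the actin cytoskeleton at focal adhesions, and some of them release TGF-β from its latent form. The genes of both families were followed here in senescent fibroblasts. Members were the protein-coding genes of the count table whose symbol is Itga with a number or letters, Itgb with a number, or Lama, Lamb or Lamc with a number. This rule took 37 of 43346 genes, of which 18 code for integrin α chains, 8 for integrin β chains and 11 for laminin chains, and it used no measured value.

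The RNA-seq compared 3 control and 3 senescent libraries of primary mouse adult fibroblasts (MAFs), which per the study's methods came from ear tissue of C57BL6/J mice that were adult and female. Control MAFs were sham irradiated, and senescent MAFs had received 20 Gy of X-rays and further culture. All cells of both groups were kept at 3% oxygen, given 100 nM dexamethasone, a glucocorticoid that sets cultured clocks to one phase, for 2 hours and collected 12 hours later, so the values describe 1 time point and no library is free of dexamethasone. Nothing in the labels says that the 3 libraries of a group came from separate cultures or animals, so p-values measure the spread between these libraries, which may be technical.

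Total counts ranged from 50288454 to 61747564 in control and from 53792998 to 82229553 in senescent libraries. After edgeR's filter on low counts 17589 genes were tested, of which 36.2% were higher and 34.1% lower in senescent MAFs at an adjusted p under 0.05. Senescent replicate 3 lay farthest from the mean of the other libraries of its group in 67.1% of these genes and in 28 of the 36 members tested. The 8 proliferation markers were all lower in senescent MAFs. Of 6 senescence genes 4 were higher and 2 lower, the latter *Lmnb1* (log2 fold change -3.55) and *Glb1* (-0.19). Fibroblast markers were abundant in both groups, with a summed level of 17806 to 19896 CPM (a gene's counts put on a common library size with TMM factors) in control and 6714 to 8014 CPM in senescent libraries, and 4 of the 10 were higher and 5 lower. Cartilage markers, led by *Col2a1* and *Acan*, summed to 4738 to 5249 CPM in control and 328 to 393 CPM in senescent libraries, and all 5 that could be tested were lower. In bulk RNA, fewer cells of a type and less RNA per cell cannot be told apart.

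Most integrin genes were higher in senescent MAFs, while laminin genes were split. Of the 36 members tested, 25 (69.4%, against 36.2% of all genes tested) were called higher and 8 (22.2%, against 34.1%) were called lower in the quasi-likelihood test of edgeR, with p adjusted over all tested genes by Benjamini-Hochberg. *Itgae*, *Itgb4* and *Lama1* did not pass. The median log2 fold change of the members was 0.80, against 0.01 over all genes tested, and *Itgam* and *Itgb2*, whose folds rest on almost no control counts, lie above it at any value in their intervals given below. With a fold change over 2 as well, 14 members were higher and 6 lower, where such calls made up 17.7% and 12.3% of all genes tested. Among the 17 α chain genes tested 12 were higher and 4 lower (median 1.02), among the 8 β chain genes 7 were higher and none lower (median 0.80), and among the 11 laminin genes 6 were higher and 4 lower (median 0.54). Over all 37 members, the groups did not overlap in 25 in the higher direction, *Itgal* included, and in 8 in the lower, where this held for 38.4% and 37% of all genes tested. *Itgal* was too low to be tested. Of the tested members, 6 (*Itgae*, *Itgam*, *Itgax*, *Itgb2*, *Lama3* and *Lamc3*) passed the filter on low counts only through the senescent libraries. The direction of these 6 was thus partly set by the filter. All 6 lie above the median of the members and so raise it, and the α chain median is the value of *Itgae*. With at least 10 counts asked of every library, 30 of these members were tested, of which 20 were higher and 8 lower. Of all 15205 genes tested in that way, 5151 were higher and 5286 lower.

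**Figure D1:**
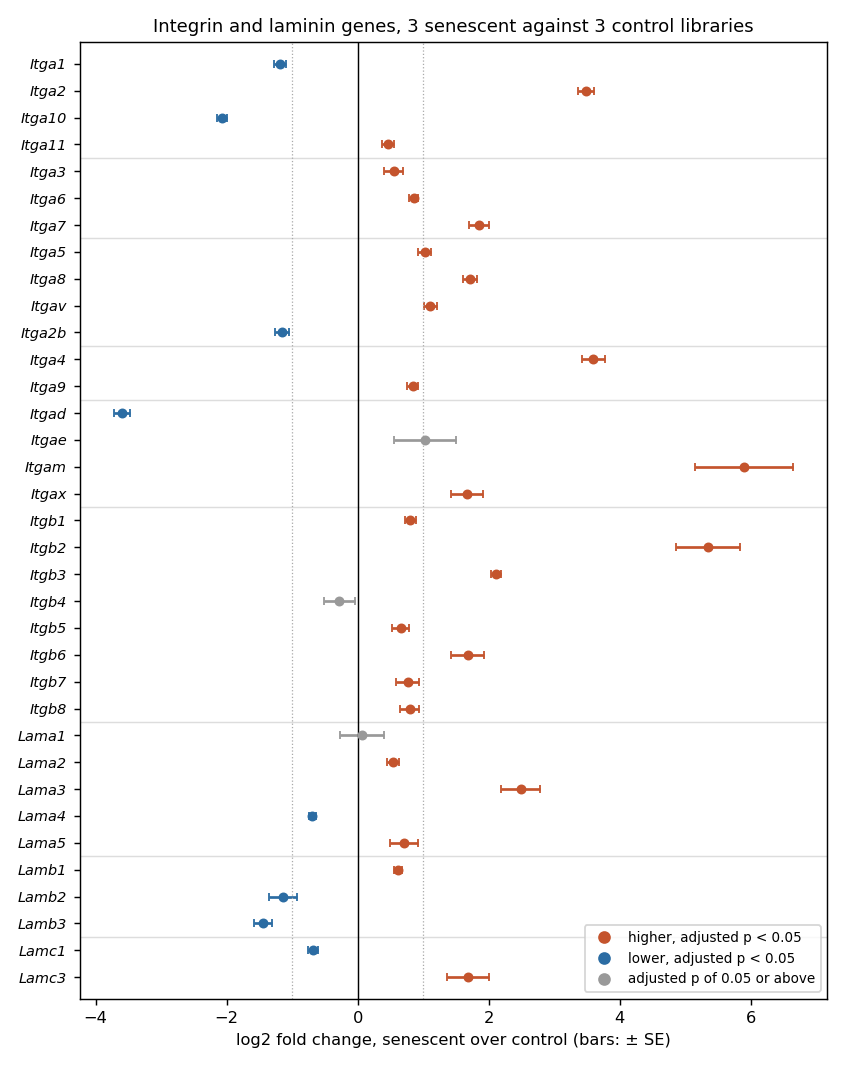
Log2 fold change (senescent over control, x axis) of 35 of the 36 tested members with its SE as bars, in the order of their roles (collagen-binding, laminin-binding, RGD-binding, α4 and α9, leukocyte α chains, β chains, laminin α, β and γ chains, separated by grey lines). Dotted lines mark a fold change of 2; *Itgad* lies lowest at -3.60, and the values of *Itgam* and *Itgb2*, which rest on 1 and 3 control counts, depend on the fit.

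Taken as RNA amount, the members held 0.312% ± 0.00372 (SD, n = 3) of all counts in control and 0.454% ± 0.00305 (n = 3) in senescent libraries. The α chain genes summed to 823 ± 11.9 CPM in control and 1304 ± 37.2 CPM in senescent libraries. The β chain genes summed to 1282 ± 33.7 and 2239.8 ± 147.9 CPM, most of it *Itgb1*. Laminin genes summed to a higher level in control (1105 ± 30.2 CPM) than in senescent libraries (870.5 ± 81.4 CPM), although more of their members were called higher than lower. Of the 4 laminin genes with the most counts per length, *Lamb2*, *Lamc1* and *Lama4* fell and *Lamb1* rose.

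Of the 6 called members with the largest log2 fold changes at a mean of 100 or more counts, RefSeq windows were at hand for 3, and the 250 bases before the start of each are shown as the sequence next to which its transcription begins. They come from RefSeq, build GRCm38.p6, and are written along the strand of the gene, with CG pairs in capitals. *Itga4* (chr2:79255176-79255425, plus strand) and *Itga2* (chr13:114932101-114932350, minus strand) were the α chain genes with the largest increases at 100 or more counts, and *Itga10* (chr3:96645334-96645583, plus strand) fell.
Itga4: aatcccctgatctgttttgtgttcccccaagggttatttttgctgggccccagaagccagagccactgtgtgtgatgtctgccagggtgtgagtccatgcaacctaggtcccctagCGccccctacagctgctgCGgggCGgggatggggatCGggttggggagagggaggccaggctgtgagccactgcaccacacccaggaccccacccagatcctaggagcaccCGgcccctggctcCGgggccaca
Itga2: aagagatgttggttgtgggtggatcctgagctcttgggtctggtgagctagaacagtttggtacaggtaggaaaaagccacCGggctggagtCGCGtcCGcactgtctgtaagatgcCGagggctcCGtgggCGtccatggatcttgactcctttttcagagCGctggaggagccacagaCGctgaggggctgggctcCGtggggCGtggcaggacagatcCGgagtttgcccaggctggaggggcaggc
Itga10: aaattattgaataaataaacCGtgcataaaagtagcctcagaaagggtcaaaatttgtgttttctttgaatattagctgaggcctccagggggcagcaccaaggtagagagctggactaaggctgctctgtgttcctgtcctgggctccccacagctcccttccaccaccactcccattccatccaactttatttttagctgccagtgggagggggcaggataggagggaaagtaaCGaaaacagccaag
The stretch before *Itga4* holds 6 CG pairs and 64.0% G and C, that before *Itga2* holds 12 and 60.8%, and that before *Itga10* holds 2 and 48.0%. Over all RefSeq promoter windows the median was 6 CG pairs, with quartiles of 2 and 16, and 52.4% G and C.

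Because the study concerns the clock protein BMAL1 and AP-1, the letters of the AP-1 site (TGACTCA, which reads TGAGTCA on the other strand) and of the E-box that the clock proteins bind (CACGTG, the same on both strands) were looked up in the RefSeq windows from 250 bases before to 50 bases after a gene's start. Windows existed for 23 of the 37 members, 26 in all, and 6 of them start over 1 kb inside the gene as the count table gives it. AP-1 letters stood in 2 of the 26 windows (7.69%), against 5.20% of all 32851 windows, and E-box letters in none of the 26, against 7.15% of all windows. The 2 windows were those of *Itga9* (chr9:118711720-118711741, plus strand), with the match 38 bases after the RefSeq start, which lies 105 kb inside the gene as counted, and *Itgax* (chr7:128129484-128129510, plus strand), with the match 56 bases before it. They are printed with the AP-1 letters in capitals.
Itga9: cagactggtcTGACTCAaggag
Itgax: ccacctcctcTGAGTCAcgctgacaac
A match is a string of letters and not a site shown to be bound, and these windows leave out distal sequence.

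Among the collagen-binding α chains, all of which pair with the β1 chain, *Itga2* was higher and *Itga1* and *Itga10* were lower. *Itga2* (ENSMUSG00000015533, chr13:114835916-114932041 of mm10) is the α chain of a collagen receptor best known from platelets and epithelia. It measured 1.94, 2.21 and 1.76 CPM in control replicates 1, 2 and 3 and 20.97, 20.95 and 24.5 CPM in senescent replicates 1, 2 and 3. All senescent libraries lay far above all control libraries, and the change was 11.2-fold, with a log2 fold change of 3.48 ± 0.12 (SE) and an adjusted p of 1.68e-07. *Itga10* (ENSMUSG00000090210, chr3:96645584-96664519) codes for a collagen receptor chain known from cartilage. It was at 39.2, 40.2 and 38.1 CPM in control and at 9.61, 9.74 and 8.68 CPM in senescent libraries. The groups lay far apart, 4.19-fold lower in senescent MAFs (log2 fold change -2.07 ± 0.08, adjusted p = 1.92e-07). In GENCODE M21, 33.5% of its exon bases are shared with Gm42957, a gene on the same strand that the count table does not list, and the part of that gene in its counts was not tested. Cartilage markers fell in the same libraries, and their part in the change of *Itga10* was not tested.

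*Itga1* (ENSMUSG00000042284, chr13:114958079-115101964), which codes for a receptor chain that prefers the collagen of basement membranes, read 136, 128 and 122 CPM in control and 54.0, 51.7 and 64.3 CPM in senescent libraries. No senescent library reached a control library, with a 2.27-fold lower level (log2 fold change -1.18 ± 0.09, adjusted p = 1.38e-05). *Itga1* and *Itga2* are neighbours on chromosome 13, with 26.0 kb and no other protein-coding gene of the table between them, and they changed in opposite directions. *Itga11*, the chain of the main receptor of fibroblasts for fibrillar collagen, was at 59.7 ± 2.32 CPM (n = 3) in control and 82.1 ± 10.1 CPM (n = 3) in senescent MAFs, a rise of 1.38-fold (adjusted p = 0.00276). The 4 collagen-binding chains summed to between 221 and 234 CPM in control libraries and to between 168 and 172 CPM in senescent libraries.

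The 3 laminin-binding α chain genes were all higher, where 36.2% of all genes tested were. *Itga7*, known as the laminin receptor chain of muscle, had 7.58, 7.65 and 8.13 CPM in control and 30.7, 32.4 and 21.6 CPM in senescent libraries. Its lowest senescent library, replicate 3, still lay above every control library, and the rise was 3.62-fold (log2 fold change 1.86 ± 0.15, adjusted p = 1.94e-05). *Itga6*, a chain shared by the laminin receptors of epithelia and many other cells, rose 1.81-fold from 59.1 ± 2.46 to 107 ± 6.87 CPM (adjusted p = 1.42e-05). *Itga3*, whose product with β1 binds the laminins of skin and lung, rose 1.47-fold from 105 ± 4.47 to 154 ± 32.2 CPM (adjusted p = 0.00924). Its senescent values of 169, 176 and 117 CPM were uneven, and only the last, from replicate 3, came near the highest control value of 108 CPM.

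Of the α chains that bind RGD sequences, *Itga5*, *Itgav* and *Itga8* were higher and *Itga2b* was lower. *Itga5* codes for the α chain of the main fibronectin receptor and was the most abundant α chain gene per length. It read 209, 216 and 210.1 CPM in control and 463, 462 and 365 CPM in senescent libraries. Senescent replicate 3 was the lowest of its group and remained well above the controls, and the gene rose 2.03-fold (log2 fold change 1.02 ± 0.10, adjusted p = 3.68e-05). *Itgav*, the α chain shared by the vitronectin receptors and by the integrins that activate latent TGF-β, had 175, 155 and 161 CPM in control and 325, 328 and 408.5 CPM in senescent libraries. Here senescent replicate 3 was the highest, and the rise was 2.16-fold (log2 fold change 1.11 ± 0.10, adjusted p = 3.14e-05).

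*Itga8*, whose product binds nephronectin and fibronectin and is known from kidney development and contractile mesenchymal cells, was at 12.3, 11.5 and 10.8 CPM in control and 34.2, 35.6 and 43.6 CPM in senescent libraries. The groups lay apart by 3.28-fold (log2 fold change 1.71 ± 0.11, adjusted p = 4.67e-06). *Itga2b*, the α chain of the fibrinogen receptor of platelets, was low at 7.02, 7.23 and 6.86 CPM in control and 3.61, 2.95 and 2.95 CPM in senescent libraries. It fell 2.23-fold with no overlap (log2 fold change -1.16 ± 0.11, adjusted p = 3.69e-05). Megakaryocyte and platelet markers were low in both groups, at 3.33 to 3.91 CPM summed over 6 genes in control and 3.66 to 4.41 CPM in senescent libraries, nearly all of it *Ppbp*, and 3 of the 6 were at 0 in all control libraries. 

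*Itga4* had the largest fold increase among the members with a mean of at least 100 counts. With β1 or β7 it forms receptors for VCAM1, MADCAM1 and fibronectin and is known for the homing of leukocytes and for migrating mesenchymal and neural crest cells. The gene (ENSMUSG00000027009, chr2:79255426-79333123) held 0.361, 0.268 and 0.388 CPM in control (18, 16 and 19 counts) and 4.003, 3.68 and 4.54 CPM in senescent libraries (222, 292 and 383 counts). It went from near absent to low, 12.1-fold up (log2 fold change 3.60 ± 0.18, adjusted p = 9.91e-07). In the GENCODE M21 annotation 8.04% of the exon bases of *Itga4* are shared with *Cerkl* on the other strand, and *Cerkl* fell, with 11.7 ± 0.684 CPM in control against 7.25 ± 0.888 CPM in senescent libraries. *Itga9*, a related chain that pairs with β1 and binds tenascin-C and osteopontin among others, rose 1.79-fold from 7.27 ± 0.338 to 13.0 ± 0.525 CPM (adjusted p = 4.01e-05).

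**Figure D2:**
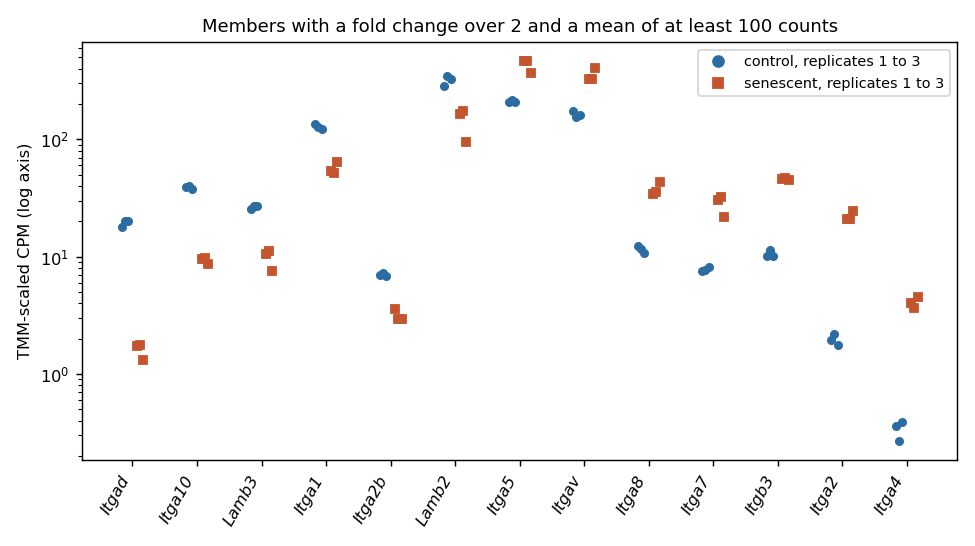
TMM-scaled CPM (log axis) of 13 of the 14 members with a mean of at least 100 counts, a call and a fold change over 2, with 1 point for each control (circles) and senescent (squares) library. The groups do not overlap in any of the 13; *Itgad* stands at the left with 18.0 to 20.1 CPM in control and 1.33 to 1.75 CPM in senescent libraries.

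*Itgad* fell more than any other member. It codes for a chain that pairs with the β2 chain on macrophages and other leukocytes, and the gene (ENSMUSG00000070369, chr7:128154376-128223816) measured 18.0, 20.1 and 20.1 CPM in control (899, 1199 and 984 counts) and 1.75, 1.75 and 1.33 CPM in senescent libraries (97, 139 and 112 counts). The groups lay 12.1-fold apart (log2 fold change -3.60 ± 0.13, adjusted p = 1.89e-07). Its partner *Itgb2* had 1 count in each control library, so RNA counted as *Itgad* was present where that of its only known β chain was nearly absent.

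The identity of the reads counted as *Itgad* is uncertain. In GENCODE M21 its exons share 388 bases with 4931431B13Rik, 102 with Gm39091 and 70 with *Cox6a2* on the opposite strand and 330 with Gm17831, a processed pseudogene, on its own strand, and of these 4 the count table lists *Cox6a2* alone, which had 3 to 14 counts in control and 32 to 46 in senescent libraries. Parts of the *Itgad* transcripts match other genes at 90% identity or more: *Itgax* over 758 bases (95.0%), *Slc25a51* over 216 bases (93.5%) and *Prc1* over 95 bases (92.6%). *Slc25a51*, a mitochondrial NAD carrier, went from 79.7 ± 0.949 to 66.2 ± 2.48 CPM in senescent MAFs. *Prc1*, a gene of the mitotic spindle, fell from 225 ± 4.73 to 9.58 ± 1.22 CPM (adjusted p = 2.4e-08). The part of these genes in the counts of *Itgad* was not tested.

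The other leukocyte α chain genes and *Itgb2* were near 0 in control and low in senescent MAFs, while *Itgb7*, given below, had 126 to 131 counts in control. *Itgam*, the α chain of the complement receptor of myeloid cells, had 0, 0 and 1 counts in control and 38, 29 and 39 counts in senescent libraries. *Itgb2*, the β chain common to the leukocyte integrins, had 1, 1 and 1 counts in control and 56, 78 and 49 in senescent libraries. The ratio of summed counts, scaled for library size, was 76.7 (95% exact interval 13.5 to 3058) for *Itgam* and 44.1 (14.9 to 216) for *Itgb2*, and these intervals cover counting error only. Both genes passed the test (adjusted p = 0.000153 and 3.05e-05), but even in senescent MAFs they reached only 0.504 ± 0.164 and 0.858 ± 0.241 CPM. *Itgam* shares 68.7% of its exon bases with Gm49368, a gene on the same strand that the count table does not list.

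*Itgax*, a dendritic cell and macrophage chain, rose 3.19-fold from 0.197 ± 0.0384 to 0.633 ± 0.0744 CPM (adjusted p = 0.000418). *Itgae*, the chain of resident lymphocytes that binds E-cadherin, had 3, 13 and 4 counts in control and 16, 15 and 25 in senescent libraries, with an adjusted p of 0.0816. Without control replicate 2, the highest of the controls, its adjusted p was 0.0142, but *Itgae* was not called when any other library was left out. *Itgal*, the lymphocyte chain that binds ICAMs, had 4, 0 and 2 counts in control and 9, 8 and 17 in senescent libraries and was not tested. The genes *Itgam*, *Itgax* and *Itgad* follow each other on chromosome 7 with gaps of 1.4 and 3.7 kb, and the first of them and *Itgax* rose while *Itgad* fell.

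Leukocyte markers moved with these genes. Of the 10 listed, 4 could be tested and all 4 were higher, where 36.2% of all genes tested were. Some of the 4, such as *Ptprc* with 12, 7 and 9 control counts, passed the filter on low counts only through the senescent libraries. The direction of these was thus partly set by the filter. The list summed to 4.63 to 5.52 CPM in control and 9.84 to 11.6 CPM in senescent libraries, and 3 of its 10 genes were at 0 in all control libraries. *Ptprc*, which marks all leukocytes, reached 0.180 ± 0.0618 CPM in control libraries and 1.39 ± 0.166 CPM in senescent libraries, while the macrophage genes *C1qa* and *C1qb* had at most 1 count in any library. Whether the leukocyte integrin RNA came from a few leukocytes or from the fibroblasts was not tested.

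**Figure D3:**
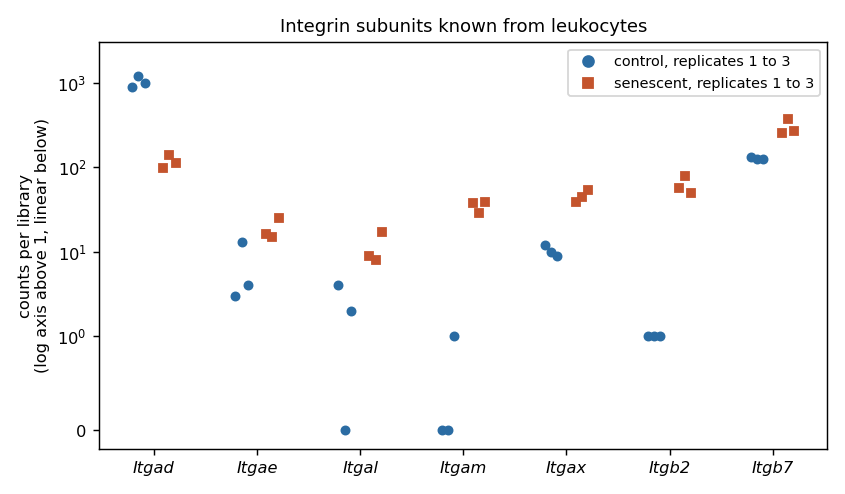
Counts per library (log axis above 1, linear below) of the integrin genes known from leukocytes, with 1 point for each control (circles) and senescent (squares) library. *Itgad* falls from between 899 and 1199 to between 97 and 139 counts, while *Itgam* and *Itgb2* rise from at most 1 count to between 29 and 78 counts.

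Of the 8 β chain genes, 7 were higher, where 36.2% of all genes tested were, and *Itgb4* did not pass the test. *Itgb1*, the partner of most α chains, was the most abundant member also per length, at 1146, 1096 and 1074 CPM in control and 1837, 1808 and 2153 CPM in senescent libraries. All senescent libraries lay above the controls, by 1.75-fold (log2 fold change 0.81 ± 0.08, adjusted p = 4.49e-05). *Itgb3*, the β chain of the vitronectin receptor and of the platelet fibrinogen receptor, changed most among the β chain genes with 100 or more counts. It had 10.2, 11.4 and 10.1 CPM in control and 46.1, 46.7 and 44.8 CPM in senescent libraries, tight groups that lay 4.33-fold apart (log2 fold change 2.12 ± 0.08, adjusted p = 1.82e-07). Its 2 α partners thus went different ways, with *Itgav* higher and *Itga2b* lower.

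The other partners of the αv chain were higher too. *Itgb5*, a vitronectin receptor chain, rose 1.58-fold from 145 ± 3.43 to 229 ± 44.1 CPM (adjusted p = 0.00254). *Itgb8* and *Itgb6*, whose receptors bind latent TGF-β, rose 1.73-fold from 12.0 ± 0.692 to 20.8 ± 4.59 CPM (adjusted p = 0.00192) and 3.21-fold from 0.374 ± 0.109 to 1.18 ± 0.200 CPM (adjusted p = 0.000532). *Itgb6*, known from epithelia, stayed low, with 15 to 23 counts in control and 60 to 119 in senescent libraries. *Itgb7*, the partner of *Itga4* and *Itgae* on lymphocytes, rose 1.70-fold from 2.44 ± 0.285 to 4.15 ± 0.815 CPM (adjusted p = 0.00476). *Itgb4*, the chain of epithelial hemidesmosomes, was at 6.29, 7.01 and 7.93 CPM in control and 7.18, 6.69 and 3.74 CPM in senescent libraries. Only senescent replicate 3 lay outside the control range, and the log2 fold change was -0.28 ± 0.23 (adjusted p = 0.312).

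Laminin genes moved in both directions, also within a chain type. *Lamc1*, the γ chain of most laminins, fell 1.61-fold from 214 ± 2.30 to 133 ± 12.7 CPM (adjusted p = 9.72e-05). *Lamc3*, a minor γ chain, rose 3.22-fold from 0.288 ± 0.111 to 0.946 ± 0.211 CPM (adjusted p = 0.00171).

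*Lama3* and *Lamb3* code for chains of the laminin that anchors epidermis, and they moved in opposite directions. *Lamb3* was at 25.4, 27.1 and 26.9 CPM in control and 10.5, 11.2 and 7.57 CPM in senescent libraries. It fell 2.72-fold with no overlap (log2 fold change -1.44 ± 0.14, adjusted p = 5.1e-05). *Lama3*, with 7 to 18 counts in control and 69 to 114 in senescent libraries, rose 5.61-fold from 0.241 ± 0.122 to 1.32 ± 0.0693 CPM (adjusted p = 0.000152). Keratinocyte markers gave no common direction beside them: of 10 genes 5 were tested, 2 were higher and 1 lower, and *Krt5* was not called. Their summed level, 16.4 to 16.997 CPM in control and 23.3 to 24.1 CPM in senescent libraries, rose with *Ivl*, which had 0 counts in all control and 741, 1114 and 1222 counts in senescent libraries, while *Trp63* fell.

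Among laminin β chains, *Lamb2*, which codes for a chain known from muscle synapses, kidney and vessels, had 288, 350.1 and 329 CPM in control and 166, 176 and 95.2 CPM in senescent libraries. Every senescent library lay below every control library, with the lowest value in replicate 3, and the fall was 2.21-fold (log2 fold change -1.15 ± 0.21, adjusted p = 0.00169). *Lamb1*, the β chain of the widespread laminins, rose 1.53-fold from 234 ± 2.36 to 359 ± 23.7 CPM (adjusted p = 6.17e-05).

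Among laminin α chains, *Lama4*, the chain of vessels, muscle and other mesenchymal tissue and per length the most abundant of the 5, was at 291, 279 and 276 CPM in control and 175, 169.9 and 179.6 CPM in senescent libraries. It fell 1.61-fold with no overlap (log2 fold change -0.69 ± 0.05, adjusted p = 1.26e-05). *Lama2*, the muscle and nerve chain, rose 1.46-fold from 11.1 ± 0.376 to 16.2 ± 1.46 CPM (adjusted p = 0.000843). Skeletal muscle markers summed to 15.5 to 20.9 CPM in control and 15.1 to 27.7 CPM in senescent libraries, overlapping ranges. Endothelial markers summed to 2.55 to 2.93 and 8.16 to 8.70 CPM, and all 5 of those tested were higher, where 36.2% of all genes tested were. Some of the 5, such as *Vwf* with 5, 6 and 6 control counts, passed the filter on low counts only through the senescent libraries. Their direction was thus partly set by the filter. The part of either marker group in the laminin values was not tested. *Lama1*, a chain of early embryos, was close to 0 and did not pass the test (16 to 26 counts in control, 23 to 38 in senescent libraries, adjusted p = 0.867).

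*Lama5*, an α chain of epithelia and vessels, was a call that few libraries decided. It read 9.40, 11.6 and 10.9 CPM in control and 20.4, 20.3 and 11.4 CPM in senescent libraries. Senescent replicate 3 lay inside the control range, and the log2 fold change was 0.71 ± 0.22 with an adjusted p of 0.0197. The adjusted p rose to 0.0708 without control replicate 1, 0.0540 without control replicate 3, 0.0636 without senescent replicate 1 and 0.0587 without senescent replicate 2, and to 0.0692 when genes with as little as 1 count were tested.

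The spread among senescent libraries came mostly from replicate 3. Its median absolute log2 ratio to the mean of the other senescent libraries was 0.301 over the members and 0.223 over all genes tested. For replicates 1 and 2, whose reference includes replicate 3, this ratio was 0.169 to 0.171 over the members. It was lower than the mean of replicates 1 and 2 for *Itgb4* (ratio 0.540), *Lamb2* (0.557), *Lama5* (0.560), *Itga3* (0.678), *Itga7* (0.685) and *Itgb5* (0.701), and higher for *Itgb8* (1.43), *Itgav* (1.25) and *Itga8* (1.25). Leaving it out changed no call of a member.

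**Figure D4:**
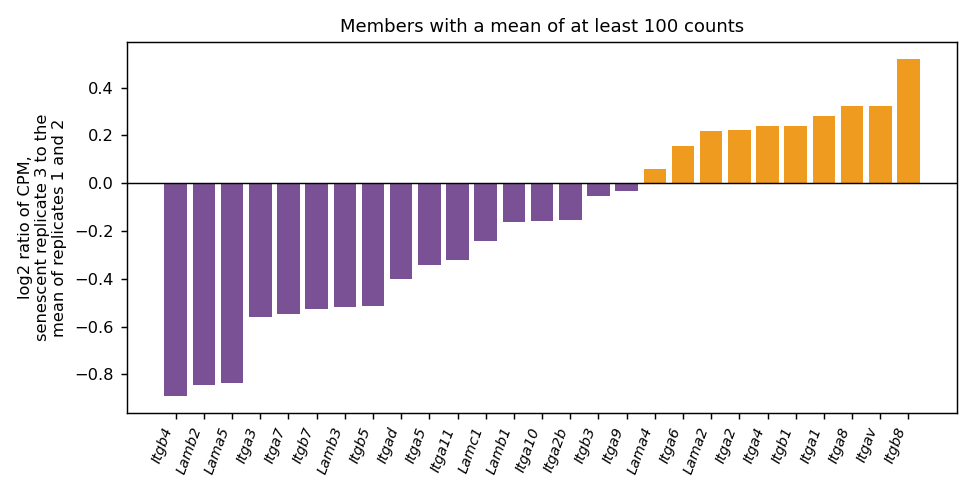
Log2 ratio of the CPM in senescent replicate 3 to the mean CPM of senescent replicates 1 and 2 (y axis) for 27 of the 28 members with a mean of at least 100 counts, as bars in ascending order. *Itgb4*, *Lamb2* and *Lama5* lie lowest at -0.89, -0.85 and -0.84, and *Itgb8* lies highest at 0.52.

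Dividing counts by the gene length in the count table allows levels of different genes to be compared. On this scale of CPM per kb, the most abundant α chain genes in control were *Itga5* at 48.3 ± 0.866, *Itga1* at 21.5 ± 1.19, *Itga3* at 18.4 ± 0.782, *Itgav* at 15.3 ± 0.956 and *Itga11* at 11.6 ± 0.452. In senescent libraries the order was *Itga5* at 98.2 ± 12.8, *Itgav* at 32.9 ± 4.42, *Itga3* at 26.9 ± 5.64, *Itga11* at 16.0 ± 1.97 and *Itga6* at 11.8 ± 0.762, with *Itga1* at 9.47 ± 1.12. The SDs of *Itgav* and *Itga3* overlapped in senescent libraries. The rank of *Itga1* in control depends on its length. With all GENCODE exons (18599 bases in place of 5984) it stood below *Itga3*, *Itgav*, *Itga11* and *Itga10* there. Of the β chain genes, *Itgb1* at 271 ± 9.06 CPM per kb in control and 474 ± 46.8 in senescent libraries stood above *Itgb5*, at 43.1 ± 1.02 and 67.97 ± 13.1.

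Shares of each chain type, computed from the same length-scaled counts, show how the makeup of each type differed between the groups. With 3 libraries a group the exact permutation test cannot go below p = 0.1, which is the value given by all shares that did not overlap. The share of *Itga5* among the α chain genes was 34.6% ± 0.463 (n = 3) in control and 45.0% ± 3.00 (n = 3) in senescent libraries, and that of *Itgav* was 10.9% ± 0.711 and 15.3% ± 3.17. *Itga1* held 15.4% ± 0.752 and then 4.38% ± 0.837, and *Itga10* held 5.40% ± 0.0759 and then 0.827% ± 0.00546. The share of *Itga1* depends on its length: with all GENCODE exons (18599 bases in place of 5984) it was 5.83% and 1.58%.

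*Itgb1* held 84.9% ± 0.688 of the β chain genes in control and 85.4% ± 3.21 in senescent libraries (exact p = 1), with senescent replicates 1 and 2 below and replicate 3 above the control range, while *Itgb3* went from 0.562% ± 0.0438 to 1.41% ± 0.111. Among laminin β chains the order turned. *Lamb2* held 65.6% ± 2.00 in control and 38.2% ± 6.19 in senescent libraries, and *Lamb1* held 29.4% ± 1.84 and 59.4% ± 6.28. Per library the share of *Lamb1* was 31.5%, 28.0% and 28.8% in control and 56.1%, 55.5% and 66.7% in senescent libraries, without overlap. *Lama4* went from 93.3% ± 0.355 to 84.4% ± 2.17 of the α chains, *Lama5* from 3.73% ± 0.468 to 8.89% ± 2.63 and *Lama2* from 2.72% ± 0.0492 to 5.77% ± 0.529.

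**Figure D5:**
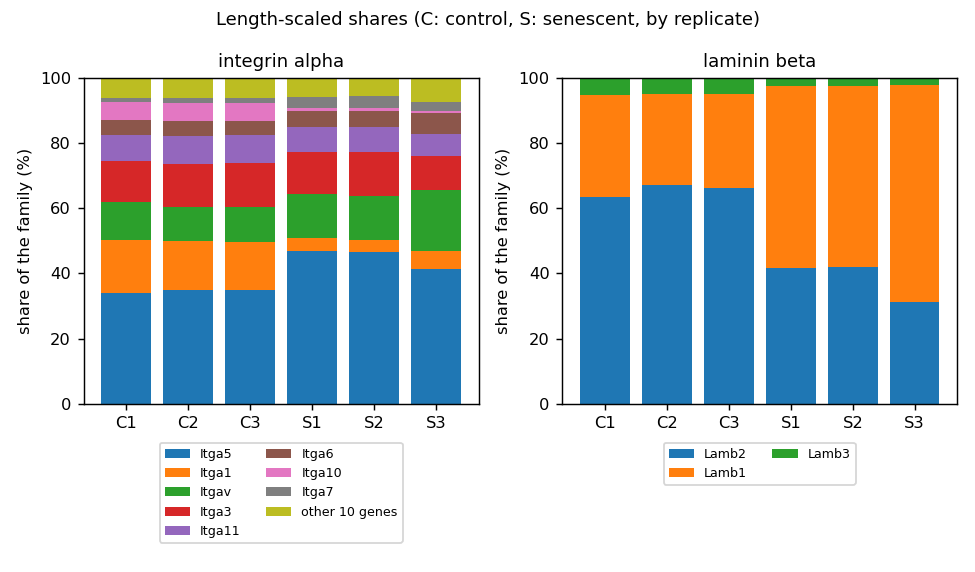
Length-scaled share (%) of each gene within the integrin α and laminin β chain genes as stacked bars, for control (C1 to C3) and senescent (S1 to S3) libraries. *Lamb1* takes 28.0% to 31.5% of the laminin β chains in control and 55.5% to 66.7% in senescent libraries, and the share of *Itga1* shrinks from between 14.7% and 16.2% to between 3.81% and 5.34%.

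Among the proteins that integrins bind, or that sit with laminins in basement membranes, the changes went both ways. Of 31 listed genes 28 were tested, and 12 (42.9%) were higher and 11 (39.3%) lower, with a median log2 fold change of 0.03, near the shares of all genes tested. *Nid2*, a nidogen that links laminin to collagen IV, fell from 225 ± 3.29 to 18.8 ± 1.58 CPM (log2 fold change -3.59 ± 0.08, adjusted p = 2.26e-08). The related *Nid1* was at 1058 ± 18.2 and 1141 ± 9.19 CPM and did not pass the test (adjusted p = 0.075). The collagen IV chains *Col4a5* (log2 fold change -2.07 ± 0.05, adjusted p = 3.18e-08) and *Col4a6* (-2.82 ± 0.09, adjusted p = 1.05e-07) fell, and so did *Dag1*, the laminin receptor dystroglycan (-1.06 ± 0.07, adjusted p = 4.28e-06). Of the ligands that rose, *Ntn1* and *Ntn4*, netrins with laminin-like domains, gained 2.36 ± 0.10 and 1.95 ± 0.07 on the log2 scale (adjusted p = 3.86e-07 and 1.72e-07). *Icam1*, the ligand of leukocyte integrins, rose from 30.3 ± 1.33 to 97.3 ± 11.2 CPM (adjusted p = 1.95e-06), and *Spp1*, which codes for osteopontin, from 5981 ± 179.6 to 12684 ± 1029 CPM (adjusted p = 4.41e-06).

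Inside the cell, the listed genes of the adhesion machinery also went both ways. Of 32 genes tested 11 (34.4%) were higher and 6 (18.8%) lower, beside 36.2% and 34.1% of all genes tested, with a median log2 fold change of 0.17. *Parvb*, a parvin that ties integrins to actin, rose from 6.01 ± 0.651 to 30.9 ± 4.57 CPM (adjusted p = 2.48e-06), and *Lims2*, its partner in the complex with integrin-linked kinase, from 5.05 ± 0.454 to 15.7 ± 3.75 CPM (adjusted p = 0.000108). *Fermt1*, an integrin activator of epithelia, had 0, 0 and 1 counts in control and 53, 66 and 84 in senescent libraries. *Parvg*, the parvin of leukocytes, had 1, 4 and 1 and then 26, 31 and 38 counts. Both are among the 11 called higher but passed the filter on low counts only through the senescent libraries, so their direction was partly set by the filter. *Tln2*, a talin that switches integrins on, fell from 127 ± 4.08 to 48.2 ± 3.97 CPM (log2 fold change -1.40 ± 0.07, adjusted p = 1.51e-06). The more abundant talin *Tln1* was at 666 ± 42.4 and 646 ± 104 CPM and did not pass the test (adjusted p = 0.756). *Fermt2*, *Parva* and *Lims1*, also more abundant than the named genes of their families, were not called either. Without senescent replicate 3, 17 of the 32 genes were higher, and without control replicate 2 or 3 only 3 were lower. With scaling by library size alone 15 were higher and 2 lower.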

How the data were processed

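The authors aligned read pairs to mm10 with STAR, obtained gene counts from Subread and deposited them as raw counts, not normalized. The strand setting and the treatment of reads with several matches are not given in the sources used here, so values of overlapping, antisense and near-identical genes are uncertain. From these counts, genes were filtered by filterByExpr (17589 of 43346 kept), scaled by TMM and compared with the robust quasi-likelihood test of edgeR 4.0.16 in R 4.3.3, two-sided, on 3 control and 3 senescent libraries with the group as the only term, with Benjamini-Hochberg adjustment over all genes tested. A call is an adjusted p under 0.05. Levels are TMM-scaled CPM. The depth of 50288454 to 82229553 counts per library sets the precision for low genes, and intervals cover counting error only.

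Members and lists were chosen with earlier results of these data known. Every member was named except 1, which is counted but not reported here. Members with a mean of at least 100 counts, a call and a fold change over 2 were given per library, together with some others described for their overlap. From the 2 adhesion lists up to 4 genes in each direction with the smallest p, a call and a fold change over 2 were named. From each marker list up to 3 were named, with *Cd14* and *Csf1r* of the leukocyte list added after their values had been seen. *Nid1*, *Tln1*, *Fermt2*, *Parva*, *Lims1* and the genes set beside *Itgad* and *Itga4* were named after their values had been seen. Neighbouring genes and sequence similarity (blastn, 90% identity or more) were also looked up after the values had been seen. Exon overlaps and lengths came from GENCODE M21 on GRCm38, in which 27 of the 37 members have the start and end of the count table. Alternatives were RLE scaling, library size alone, other filters on low counts, DESeq2 1.42.0, a replicate block and leaving out each library in turn. The method was tested on simulated data.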

Additional observations from a re-analysis of the deposited data

How the results depend on the processing

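Under the alternatives (RLE scaling, library size alone, 2 other filters, DESeq2, a replicate block and each library left out in turn), the log2 fold changes of the members kept their side of the threshold in 420 of 426 values, and no called value changed sign. *Lama1*, which was not called, changed sign in 3 values, to -0.16 without control replicate 2, -0.05 without senescent replicate 1 and -0.07 without senescent replicate 2. The exceptions to the threshold were 5 values of *Lama5*, which no longer passed, and *Itgae* without control replicate 2, which passed. These values leave out *Itgal*, which the main fit did not test. *Itgal* was called higher when genes with as little as 1 count were tested and without control replicate 1. In both, 13 α chain genes in place of 12 were higher.

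The numbers of members called higher and lower changed by less than 1.5 times under all these alternatives. With at least 10 counts in every library, 9 members in place of 14 were higher with a fold change over 2, since members with fewer counts in a control library were not tested. Of the adhesion machinery, 2 genes in place of 6 were lower, and 15 in place of 11 higher, with scaling by library size alone, which moved the median of all genes by 0.08 on the log2 scale. With 1 library left out, the number of these genes called higher ranged from 11 to 17 and the number called lower from 3 to 6; the cause was not tested.

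The labels do not say whether libraries with the same replicate number are paired. Deviations of libraries with the same number from their group's mean correlated between -0.15 and 0.14, with 1 of 3 pairs over 0.1. With 3 libraries a group, such correlations cannot show whether the numbers pair the libraries. With a replicate block, 25 members were higher and 8 lower, as without it, and it changed no call of a member. Length changed the shares of integrin α chains through *Itga1*: with GENCODE exon lengths *Itga5* held 36.2% and *Itga10* 6.37% in control. Depth limits the members with few counts, above all *Itgal*, *Itgam* and *Itgb2*.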
